A study of Mus musculus with 12 samples.

Results

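Cytosolic ribosomal protein genes encode the proteins of the ribosome that translates nuclear mRNAs. They were taken here as every row of the raw count table whose Ensembl identifier maps to a protein-coding mouse symbol Rpl or Rps followed by digits and at most 1 letter a, x or y, together with Rplp0, Rplp1, Rplp2 and Rpsa, and without pseudogenes. The rule found 74 genes among the 28991 genes of the table, 44 of the large and 30 of the small ribosomal subunit. They lay on 19 chromosomes, and all 74 passed the filter on low counts. Rpl13 and Rpl24, which the rule also names in the annotation, were not analysed here.

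Kidney mRNA was sequenced from 8-week-old BALB/c males, in 4 groups of 3 mice with 1 library per mouse. Saline mice had a daily intraperitoneal injection of saline for 6 days, and dichloroacetate mice had 250 mg/kg of dichloroacetate daily for 6 days. Cisplatin mice had saline for 5 days, then a single intraperitoneal dose of 20 mg/kg cisplatin, and were killed 24 hours later. Combination mice had 250 mg/kg dichloroacetate for 5 days, then 20 mg/kg cisplatin together with dichloroacetate, and were killed 24 hours later. The series title presents dichloroacetate as a protection against cisplatin nephrotoxicity. Cisplatin is a platinum drug that crosslinks DNA and injures the kidney tubule, and dichloroacetate inhibits the kinases that switch off pyruvate dehydrogenase.

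A ribosome needs 1 copy of nearly every ribosomal protein for each set of ribosomal RNAs, so the mRNAs of these genes are abundant and are usually made in similar amounts. Most of them begin with a run of pyrimidines at the cap, the 5′ terminal oligopyrimidine (TOP) motif, through which the kinase mTOR and the RNA-binding protein LARP1 set how much of the mRNA is translated and stored. The kidney tubule relies on this machinery for a steady supply of transporters and enzymes. Several ribosomal proteins also act outside the ribosome: Rpl5 and Rpl11 bind 5S ribosomal RNA and, when free, inhibit the p53 ubiquitin ligase Mdm2.

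Runs of pyrimidines were common around the annotated starts of the members. RefSeq's promoter table for GRCm38.p6 held 64 entries for 54 of the 74 members. A run of at least 8 consecutive pyrimidines (C or T, on the gene's strand, within 50 bases of the annotated start) was present in 53 of these 64 entries, or 82.8%, against 35.7% of all 32851 entries. A run that began within 5 bases of the annotated start, the place of a TOP motif if that start is the cap, was present in 15 entries, or 23.4%, against 4.80% of all entries. The 8 members shown are the 6 with the largest rise after cisplatin and, for contrast, Rps27, which did not pass the test, and Rpl10, which fell. Each is a stretch of 30 bases, 5′ to 3′ on the gene's strand, and capitals mark the longest pyrimidine run that overlaps the window, which need not be the TOP motif.
Rpl12: ggaggaggcaacggtgcaaCTTTCTTCggt
Rplp0: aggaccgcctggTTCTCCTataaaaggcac
Rpsa: gagcggaagTTCTCCCTTTTTgcttagcct
Rpl19: gcggcccacaagCTCTTTCCTTTCgctgct
Rpl13a: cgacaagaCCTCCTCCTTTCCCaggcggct
Rpl9: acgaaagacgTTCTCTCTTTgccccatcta
Rps27: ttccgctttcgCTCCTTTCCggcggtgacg
Rpl10: cgtgagcaggcgtgggagcgTCTCTTTTCC
On GRCm38.p6 the Rpl12 stretch lay at chr2:32961732-32961761 on the plus strand, that of Rplp0 at chr5:115559466-115559495 (plus) and that of Rpsa at chr9:120127702-120127731 (plus). The Rpl19 stretch lay at chr11:98026944-98026973 (plus), that of Rpl13a at chr7:45128722-45128751 (minus) and that of Rpl9 at chr5:65391383-65391412 (minus). The Rps27 stretch lay at chr3:90213632-90213661 (minus) and that of Rpl10 at chrX:74270836-74270865 (plus). The run of Rplp0 was 7 bases long, 1 short of the length counted. Those of Rpl19 and Rpl13a were 12 and 14 bases long. The run of Rpsa had 12 bases and began 55 bases before the annotated start, so only its last 7 bases lay in the window. The runs of Rpl12, Rpl19, Rpl9 and Rpl10 began 39, 32, 29 and 40 bases after the annotated start, and that of Rpl10 ran to the end of its entry. The runs of Rpl13a and Rps27 began 2 bases after and 2 bases before it.

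The change after cisplatin was set beside these letters as a description. The median log2 fold change from saline to cisplatin was 0.30 in the 47 members with a run and 0.45 in the 7 without. The hexamer CGGAAG, the core of sites for ETS transcription factors, stood on either strand of the 300-base entry in 62.5% of the members' entries and 16.9% of all entries. The TATA-box letters TATAAA stood on either strand in 9.38% of the members' entries and 13.6% of all, and CACGTG, the E-box bound by Myc, in 12.5% and 7.15%. The median log2 fold change was 0.31 in the 38 members with CGGAAG and 0.35 in the 16 without it, and 0.46 in the 6 members with CACGTG against 0.31 in the 48 without it. It was 0.44 in the 6 members with TATAAA and 0.30 in the 48 without it. A match is a set of letters in a window, not a shown binding site, and no test was made.

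The 12 libraries held between 29505929 and 62237514 counts, and a member had between 2961 and 28560 counts in a library, so that counting noise was small beside the spread between mice. Saline mice had 14.8, 14.1 and 13.9% of their counts on mitochondrially encoded genes, and the cisplatin mice 11.3 to 12.2%. The kidney label held: the 11 proximal tubule markers summed to between 31479 and 33854 CPM in the saline libraries. CPM are the counts scaled to a fixed library size, which for marker sums is the plain library total. In saline mice the members had a mean level of between 86.5 and 487 CPM (median 210). Per kilobase of exon they spanned 23.1 to 602 CPM per kilobase, a 26.0-fold range around a median of 103. On that scale Rplp1, Rps15 and Rpl36 were highest at 602, 389 and 324 CPM per kilobase, and Rps15a, Rps24 and Rpl12 lowest at 23.1, 35.8 and 38.9. Exons of all annotated transcripts were counted in the length, so long minor transcripts lower the value of such genes.

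After cisplatin alone, most ribosomal protein mRNAs were moderately more abundant than in saline mice. Of the 74 members 61 rose, 2 fell and 11 did not pass the test (edgeR quasi-likelihood test, Benjamini-Hochberg adjusted p below 0.05 over 20370 genes). That is 82.4% of the members higher, against 29.7% of all genes tested, and 2.70% lower, against 30.4%. The median log2 fold change was 0.28, a 1.21-fold higher level, with a range of -0.35 to 0.65, and the median over all genes was -0.01. No member reached a log2 change of 1 in either direction, whereas 3208 genes of the table did so and passed the test. The changes were packed closely: their SD over the members was 0.18, against 0.93 over all genes, and the median SE of a single member was 0.066. The SD over all genes includes genes with far fewer counts than the members. Between dichloroacetate and saline, where only 63 genes were called, it was likewise wider, at 0.26 against 0.046 over the members. The cisplatin and saline libraries did not overlap for 55 of the 74 members, or 74.3%, beside 64.8% of all genes tested. They did so with the cisplatin mice higher for 53 members, or 71.6%, beside 32.2% of all genes.

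**Figure D1:**
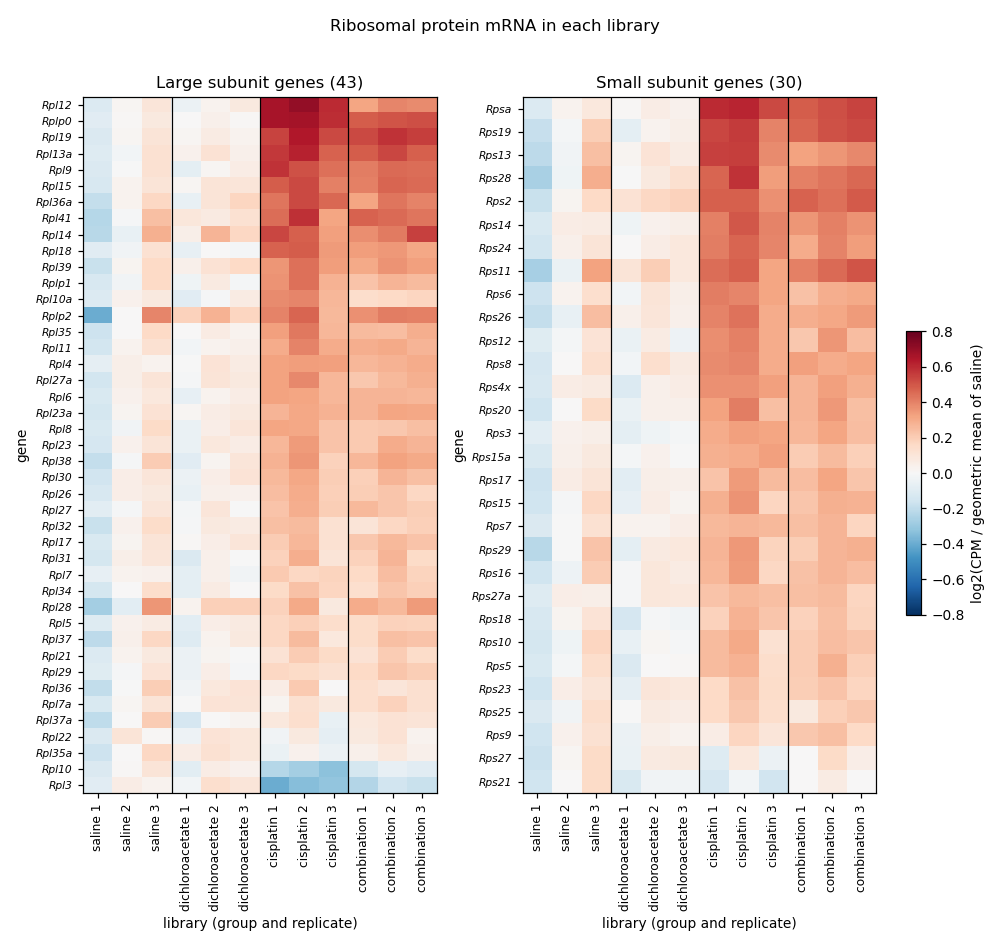
Log2 ratio of each member's CPM to the geometric mean of the 3 saline libraries, for 43 large-subunit (left) and 30 small-subunit genes (right) in rows ordered by their change after cisplatin, with the 12 libraries in columns. Red is higher and blue lower than saline: the cisplatin and combination columns are red for most rows, Rpl3 and Rpl10 at the foot of the left panel are blue, and saline replicate 1 is pale blue and saline replicate 3 pale red throughout.

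The members moved together between saline mice as well. In saline replicate 1 all 74 members lay below the saline mean (log2 ratios -0.40 to -0.06, median -0.14), and in saline replicate 3 all 74 lay above it (0.01 to 0.39, median 0.12). The median of saline replicate 2 was 0.01. The 3 cisplatin mice had medians of 0.28, 0.34 and 0.25, each above the highest saline median. Because the members shift as a block from mouse to mouse, their number does not stand for independent observations. Leaving out saline replicate 1 lowered the median log2 fold change after cisplatin to 0.21, and leaving out saline replicate 3 raised it to 0.35.

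The scaling between libraries bears on the size of these changes. With library totals in place of the trimmed mean of M-values (TMM), the median over all genes after cisplatin moved from -0.01 to 0.26, and the members' median to 0.56, with 72 members higher and 0 lower. Over all genes the calls moved from 6048 higher and 6196 lower to 9749 and 3596. Relative to the median gene, the members stood 0.29 above under TMM scaling and 0.29 above under library totals. A change of scaling shifts all genes by nearly the same amount, so this difference could hardly vary and is no check on the scaling. TMM computed without the ribosomal protein genes gave the same 61 and 2 calls in number. Summed over members and without TMM scaling, ribosomal protein mRNA took 1.40, 1.51 and 1.59% of all counts in the saline mice and 2.27, 2.31 and 2.11% in the cisplatin mice, with no overlap between the groups. Of the counts outside the mitochondrial genome the share was 1.65 to 1.85% in saline and 2.40 to 2.60% in cisplatin mice. In whole kidney, a change in cell composition and a change in mRNA per cell cannot be told apart.

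The ribosomal stalk, the lateral arm of the large subunit that recruits translation factors, held the 2 largest rises. Rpl12, the protein at the base of the stalk (gene at chr2:32961559-32965345 on mm10), stood at 130, 141 and 149 CPM in the saline mice and at 221, 228 and 212 CPM in the cisplatin mice. Every cisplatin mouse lay above every saline mouse, a log2 fold change of 0.65 ± 0.06 (SE, n = 3 per group) with an adjusted p of 6.1e-07 in edgeR. Rplp0, the scaffold of the stalk (chr5:115559467-115563727), stood at 284, 304 and 319 CPM in saline and at 477, 479 and 454 CPM in cisplatin mice. It rose by 0.64 ± 0.05 on the log2 scale (adjusted p 1.3e-07), and again the groups did not overlap. The acidic stalk protein Rplp1 rose by 0.36 ± 0.07 (adjusted p 0.00050), from 274, 294 and 334 CPM to 384, 407 and 364 CPM. Its partner Rplp2 spread widely in saline mice, at 98.6, 130 and 170 CPM, and overlapped the 171, 179 and 155 CPM of the cisplatin mice. Its log2 fold change of 0.34 ± 0.14 passed the test narrowly (adjusted p 0.045). Without saline replicate 1 it was 0.16 (adjusted p 0.16), and without saline replicate 3 it was 0.56 (adjusted p 0.00035).

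Among the other large-subunit proteins the highest rises were those of Rpl19, Rpl13a and Rpl9. Rpl19, whose protein helps bridge the subunits, stood at 255, 279 and 296 CPM in saline and at 402, 431 and 399 CPM in cisplatin mice, a log2 change of 0.57 ± 0.06 (adjusted p 1.5e-06). Rpl13a, which also silences inflammatory mRNAs when released from the ribosome, stood at 258, 272 and 300 CPM in saline and at 408, 423 and 383 CPM in cisplatin mice. Its log2 change was 0.55 ± 0.06 (adjusted p 3.7e-06), and neither gene's groups overlapped. Rpl9 stood at 240, 259 and 282 CPM in saline and at 388, 370 and 352 CPM in cisplatin mice (log2 change 0.51 ± 0.06, adjusted p 1.2e-05). The 5S RNA partners rose less. Rpl11 went from 231, 261 and 279 CPM to 315, 337 and 315 CPM (0.33 ± 0.06, adjusted p 0.00047), and Rpl5 from 394, 433 and 443 CPM to 474, 482 and 466 CPM (0.16 ± 0.06, adjusted p 0.021). The groups of both were apart, but the call on Rpl5 was lost without saline replicate 1 (0.11, adjusted p 0.086) and without cisplatin replicate 2 (0.15, adjusted p 0.065).

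Rpl3 and Rpl10, both of which lie near the catalytic centre of the large subunit and of which Rpl10 joins last during maturation, were the 2 members that fell. Rpl3 (chr15:80077791-80091868) stood at 268, 298 and 291 CPM in the saline mice and at 217, 226 and 229 CPM in the cisplatin mice, with no overlap. Its log2 fold change was -0.35 ± 0.06 (adjusted p 0.00012 in edgeR). Rpl10 (chrX:74270812-74273135) stood at 445, 487 and 518 CPM in saline and at 412, 399 and 384 CPM in cisplatin mice, again without overlap. It fell by 0.28 ± 0.06 on the log2 scale (adjusted p 0.0014). Under library totals neither was called, at -0.08 for Rpl3 (adjusted p 0.18) and 0.00 for Rpl10 (adjusted p 0.99). Relative to the median gene, Rpl3 stood at -0.34 under both scalings and Rpl10 at -0.27 under TMM and -0.26 under library totals. Such values barely depend on the scaling by construction, so they do not restore the lost calls. Both genes have named pseudogene rows that hold many reads, 40.1% of the reads of Rpl3 with its pseudogenes and 49.2% of those of Rpl10, so their own counts are uncertain. With the pseudogene counts added, the log2 fold changes were -0.34 and -0.28.

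**Figure D2:**
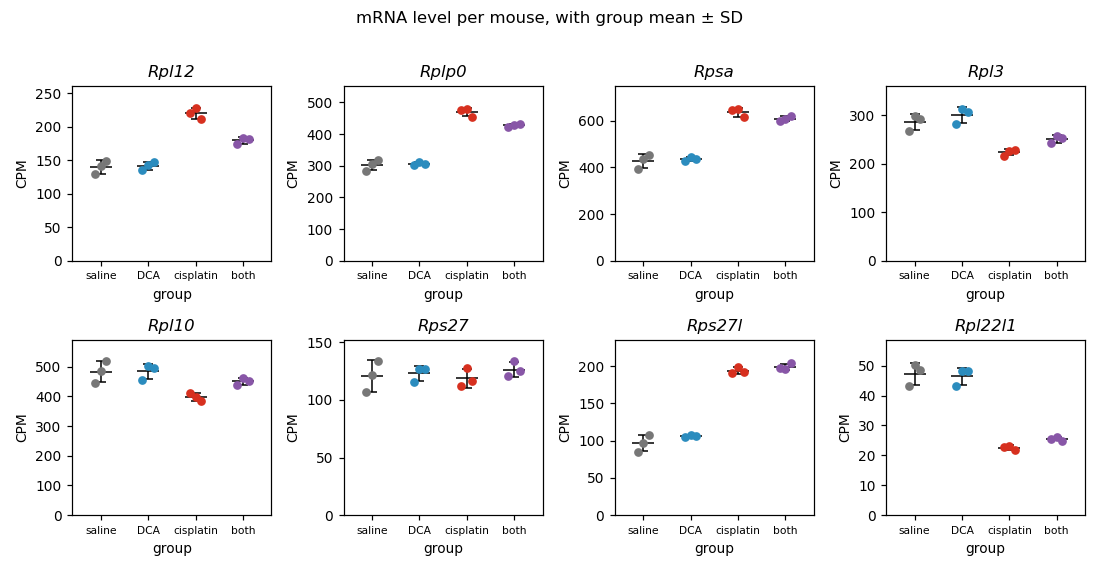
CPM of 8 genes in each mouse (points, 3 per group) with the group mean (bar) and SD (whiskers), on axes that start at 0; DCA is dichloroacetate and both is the combination. Rpl12, Rplp0, Rpsa and Rps27l are higher in every cisplatin and combination mouse than in every saline mouse, Rpl3 and Rpl22l1 are lower in them, Rpl10 is lower in the cisplatin mice, and the groups of Rps27 overlap.

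The small subunit changed at least as widely, with 27 of 30 genes higher and 0 lower, beside 34 higher and 2 lower of 44 in the large subunit. The median log2 fold change was 0.31 in the small and 0.27 in the large subunit, and this difference was not tested. Rpsa, the laminin receptor that sits near the mRNA exit (chr9:120127689-120132369), was the most raised member of the subunit. It stood at 395, 434 and 452 CPM in saline and at 644, 651 and 614 CPM in cisplatin mice, which did not overlap (0.58 ± 0.05, adjusted p 6.9e-07). Rps19, the gene most often mutated in Diamond-Blackfan anaemia, stood at 184, 207 and 240 CPM in saline and at 303, 308 and 276 CPM in cisplatin mice. It rose by 0.49 ± 0.08 (adjusted p 0.00015), with 32.5% of its reads and those of its named pseudogenes on the pseudogenes. Rps14, whose loss marks a form of myelodysplasia, rose by 0.43 ± 0.06 (adjusted p 2.2e-05) from 141, 160 and 160 CPM to 203, 216 and 202 CPM.

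Further small-subunit genes followed with similar sizes. Rps6, the substrate of the mTOR-dependent S6 kinases, rose by 0.37 ± 0.07 (adjusted p 0.00036), with 278, 318 and 341 CPM in saline and 413, 407 and 387 CPM in cisplatin mice. Rps4x, the X-linked form of Rps4, rose by 0.35 ± 0.06 (adjusted p 0.00026) from 279, 318 and 320 CPM to 394, 392 and 382 CPM. Rps3, which lines the mRNA entry channel and has a role in DNA repair, rose by 0.31 ± 0.05 (adjusted p 7.8e-05) from 273, 296 and 298 CPM to 355, 363 and 359 CPM. In all 3 genes every cisplatin mouse exceeded every saline mouse.

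Among the 11 members that did not pass the test were Rpl7a, Rpl22, Rpl28, Rpl35a, Rpl36, Rpl37, Rpl37a, Rps9, Rps21 and Rps27, and the log2 fold changes of the 11 ran from -0.11 (Rps21) to 0.17 (Rpl28). Rps27, which carries a zinc finger, stood at 107, 122 and 134 CPM in saline and at 112, 128 and 117 CPM in cisplatin mice, which overlapped (-0.02 ± 0.08, adjusted p 0.81). Rpl22, which is dispensable for translation and has a paralog that can replace it, stood at 122, 142 and 133 CPM and at 130, 139 and 126 CPM (-0.01 ± 0.07, adjusted p 0.92). In simulated data of this size the test recovered 5 of 50 genes changed by 0.3 on the log2 scale and 39 of 50 changed by 0.6. Only 200 genes were changed there, drawn from genes of widely differing counts, whereas 12244 genes were called here. The simulation therefore does not give the power for the members, and a member not called may still have changed. Over the 74 members the log2 fold change was nearly unrelated to exon length (Pearson r 0.11), gene span (0.11) and CPM in saline mice (0.04). These coefficients describe genes that share the same 6 libraries.

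**Figure D3:**
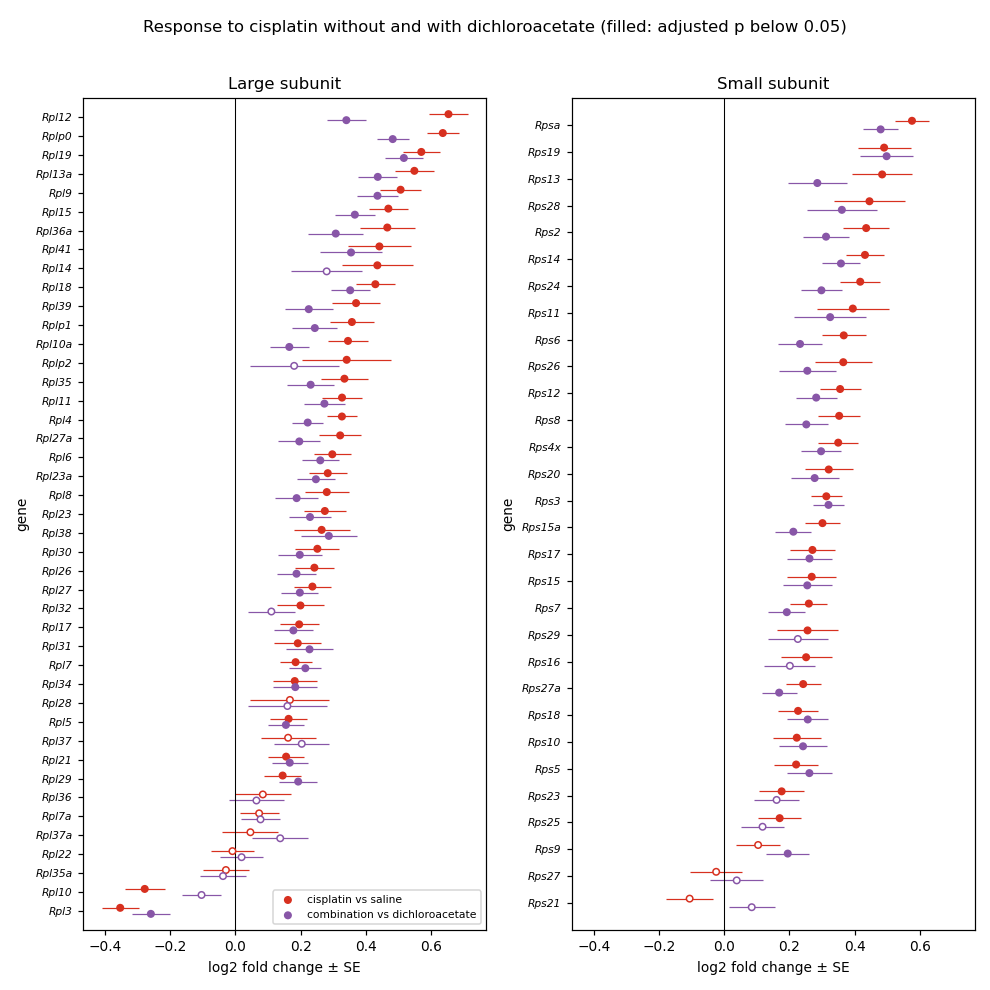
Log2 fold change with SE (whiskers) of 43 large-subunit and 30 small-subunit members for cisplatin against saline (red) and combination against dichloroacetate (purple), large subunit on the left and small subunit on the right; filled points have an adjusted p below 0.05. Most points of both colours lie between 0.1 and 0.6, and Rpl12 shows the widest gap between the colours, 0.65 against 0.34.

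No member was called different between dichloroacetate alone and saline. Of the 74, 0 were higher, beside 0.128% of all genes, and 0 lower, beside 0.182%. Also 0 had an unadjusted p under 0.05 in edgeR, and DESeq2 called 0. Without saline replicate 3, 13 members had an unadjusted p under 0.05 and 0 were called, with a median of 0.09, and without saline replicate 1 the median was -0.04. The smallest adjusted p of a member was 0.43. Log2 fold changes ran from -0.07 to 0.18 with a median of 0.03, and summed mRNA took 1.45, 1.54 and 1.49% of the counts, within the range of the saline mice. Rplp0 stood at 302, 311 and 305 CPM under dichloroacetate, and Rpl12 at 136, 143 and 147 CPM. Rps6 stood at 306, 333 and 321 CPM. The values of Rplp0, Rpl12 and Rps6 all fell inside the spread of the saline mice.

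With dichloroacetate given beforehand and along with cisplatin, the rise of the ribosomal protein mRNAs persisted. Against dichloroacetate alone, 56 of the 74 members were higher and 1 was lower in the combination, or 75.7 and 1.35%, beside 21.5 and 19.2% of all genes. The median log2 fold change was 0.23 (range -0.26 to 0.52), a 1.17-fold higher level. Under library totals 72 were higher and 0 lower, beside 8458 and 2225 of all genes in place of 4377 and 3909. The count of 56 depended on single libraries: it was 29 without dichloroacetate replicate 1, 34 without combination replicate 3 and 35 without combination replicate 2. Rpl19 led with 0.52 ± 0.06 (adjusted p 1.0e-05), followed by Rps19 with 0.50 ± 0.08 (adjusted p 0.00028) and Rplp0 with 0.48 ± 0.05 (adjusted p 5.3e-06). Rpl19 stood at 279, 289 and 281 CPM under dichloroacetate and at 397, 413 and 406 CPM in the combination, and Rps19 at 198, 214 and 216 CPM and at 288, 297 and 301 CPM. In both genes the groups were well apart. Rpl3 was again the member that fell, from 281, 313 and 306 CPM to 242, 257 and 253 CPM (-0.26 ± 0.06, adjusted p 0.0027), and under library totals it was not called (-0.07, adjusted p 0.26).

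The order of the members was similar in both cisplatin comparisons, which share no library. In both comparisons 54 members rose, and a further 7 rose from saline to cisplatin alone and 2 from dichloroacetate to the combination alone. Across the 74 members the log2 fold changes correlated with Pearson r 0.92 (Spearman 0.86), beside r 0.84 over all genes tested. Against saline, 57 members were higher and 1 lower in the combination (77.0 and 1.35%, beside 20.6 and 19.6% of all genes), with a median of 0.25 and the highest values in Rpl19 (0.55), Rpsa (0.51) and Rplp0 (0.50). Under library totals 72 were higher and 0 lower, and over all genes 7482 and 2508 in place of 4203 and 3986. That comparison shares the saline mice with cisplatin against saline.

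Set directly against cisplatin alone, the combination differed little in these genes. Of the members 2 rose and 2 fell, 2.70% in each direction, beside 18.1% of all genes higher and 13.5% lower, and 70 members did not pass the test. The median log2 difference was -0.02, within a range of -0.29 to 0.18. Summed ribosomal protein mRNA took 1.99, 2.06 and 1.98% of counts in the combination, all below the 2.11 to 2.31% of the cisplatin mice and all above the saline mice. On the TMM scale the sums overlapped, at 19081, 19657 and 19391 CPM in the combination and 19707, 20317 and 18925 CPM in the cisplatin mice. Under library totals 35 members were lower and 0 higher, and over all genes 2317 were higher and 5134 lower in place of 3688 and 2753, while the median over all genes moved from 0.01 to -0.11. Relative to the median gene the members stood at -0.03 under both scalings, a value that barely depends on the scaling by construction.

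Rpl12 was the member that differed most. It stood at 221, 228 and 212 CPM in the cisplatin mice and at 174, 183 and 182 CPM in the combination mice, which did not overlap (-0.29 ± 0.06, adjusted p 0.0020). The combination mice were also above the saline mice, of which the highest had 149 CPM. Rpl10a fell from 285, 287 and 264 CPM to 241, 244 and 246 CPM (-0.19 ± 0.06, adjusted p 0.026), again without overlap, and lost its call when either of cisplatin replicates 1 and 2 or combination replicates 1 and 2 was left out. Rpl10 and Rpl3 were higher in the combination than after cisplatin alone. Rpl10 stood at 438, 461 and 453 CPM against 412, 399 and 384 CPM (0.18 ± 0.06, adjusted p 0.042), and Rpl3 at 242, 257 and 253 CPM against 217, 226 and 229 CPM (0.16 ± 0.06, adjusted p 0.044). Neither was called under relative log expression scaling, under library totals, by DESeq2 or when any single cisplatin or combination mouse was left out.

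**Figure D4:**
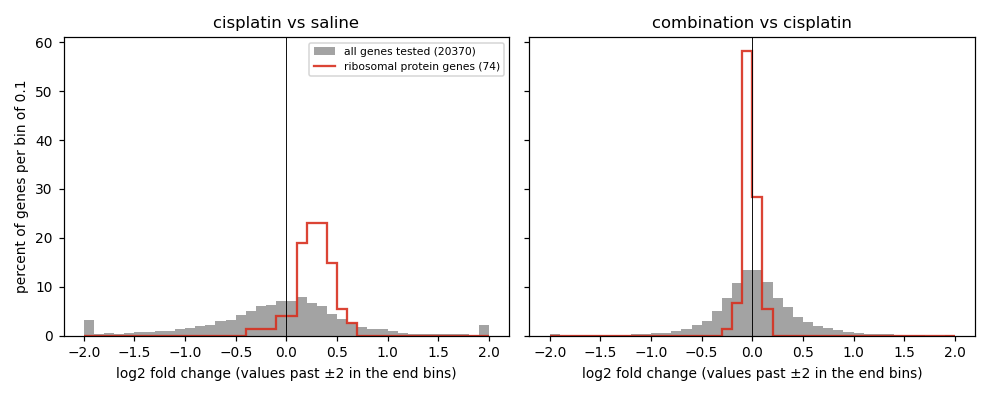
Percent of genes in bins of 0.1 on the log2 fold change axis, for all 20370 genes tested (grey) and the 74 ribosomal protein genes (red line), in cisplatin against saline (left) and combination against cisplatin (right). The members form a narrow peak with a median of 0.28 on the left and of -0.02 on the right, inside a broader distribution of all genes.

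The interaction, that is the cisplatin effect under dichloroacetate minus the cisplatin effect without it, tests whether dichloroacetate changed the response. It was called for 0 members in the higher and 1 in the lower direction, beside 11.4 and 7.15% of all genes. An unadjusted p under 0.05 was found for 2 members, and DESeq2 also called 0 higher and 1 lower. Under library totals 0 members were called higher and 4 lower, and over all genes 1712 and 2383 in place of 2327 and 1456. The member called was Rpl12, with -0.31 ± 0.08 (adjusted p 0.020), a cisplatin effect of 0.34 under dichloroacetate and of 0.65 without it. It was not called without cisplatin replicate 2 (-0.29, adjusted p 0.058) or without combination replicate 1 (-0.29, adjusted p 0.061). Over the members the interaction had a median of -0.05 and a range of -0.31 to 0.19, with 53 values below 0 and 21 above. That direction rested on single mice: without saline replicate 1 the median was 0.02, and without saline replicate 3 it was -0.11, with 17 members at an unadjusted p under 0.05. Under library totals the median was -0.14. The median SE of an interaction was 0.093, which is wide beside the members' changes.

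Ribosomal proteins whose symbols fall outside the rule were also split. Rack1, a scaffold on the small subunit, rose by 0.50 ± 0.05 (adjusted p 2.9e-06), from 295, 322 and 330 CPM in saline to 451, 456 and 431 CPM in cisplatin mice. Rps3a1 rose by 0.28 ± 0.05 (adjusted p 0.00043), from 276, 306 and 311 CPM to 364, 364 and 355 CPM. Fau, which encodes Rps30 fused to a ubiquitin-like sequence, did not pass the test, at -0.02 (adjusted p 0.81). Under library totals Rack1, Rps3a1 and Fau were all called higher. None of the 3 was called between combination and cisplatin under TMM scaling, whereas under library totals Rack1 (-0.26, adjusted p 0.00066) and Rps3a1 (-0.16, adjusted p 0.013) were called lower in edgeR.

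Of the 7 paralogs of ribosomal proteins tested 2 rose and 2 fell after cisplatin (5 and 1 under library totals). That is 28.6% in each direction, near the 29.7 and 30.4% of all genes. Rps27l, Rpl22l1 and Rpl3l changed by more than any member. Rps27l, a copy of Rps27 that is a known p53 target, stood at 85.3, 96.6 and 107 CPM in saline and at 191, 199 and 191 CPM in cisplatin mice, and at 198, 196 and 204 CPM in the combination. Its log2 fold change after cisplatin was 1.01 ± 0.07 (adjusted p 3.4e-08), beside -0.02 for Rps27. Rpl22l1, the copy of Rpl22, stood at 43.0, 50.05 and 48.4 CPM in saline, at 22.9, 23.1 and 21.8 CPM in cisplatin and at 25.6, 26.0 and 24.9 CPM in combination mice. It fell by 1.06 ± 0.06 on the log2 scale (adjusted p 1.0e-08), beside -0.01 for Rpl22. Neither paralog was called between combination and cisplatin (0.04 and 0.18, adjusted p 0.70 and 0.054), and the value of Rps27l was -0.09 under library totals.

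Of the other paralogs, Rpl7l1 rose by 0.16 (adjusted p 0.045, not called under relative log expression scaling) and Rpl3l, a scarce mRNA in every library, fell by 0.73 (adjusted p 0.014). Rpl36al, Rps27rt and Rps4l were not called at -0.04, -0.08 and 0.34. Rpl3l was lower after cisplatin (0.57, 0.54 and 0.73 CPM) than in saline mice (0.84, 1.29 and 0.89 CPM), and higher in the combination (1.27, 1.01 and 0.94 CPM, 0.80 ± 0.23 against cisplatin, adjusted p 0.018). Its fall after cisplatin was not called under library totals (-0.45, adjusted p 0.099).

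Most genes that build ribosomes rose after cisplatin and were lower in the combination than after cisplatin alone. Of the 34 tested genes for nucleolar processing and modification of ribosomal RNA, 30 rose and 2 fell after cisplatin (88.2 and 5.88%, beside 29.7 and 30.4% of all genes), with a median log2 change of 0.55. Between combination and cisplatin 26 of these 34 were lower and 2 higher (76.5 and 5.88%, beside 13.5 and 18.1% of all genes), with a median of -0.38. Against dichloroacetate alone, 15 of the 34 were higher and 1 lower in the combination (44.1 and 2.94%, beside 21.5 and 19.2% of all genes). The interaction was called lower for 25 and higher for 1 (73.5 and 2.94%, beside 7.15 and 11.4% of all genes). Nop56, a core protein of the snoRNPs that methylate ribosomal RNA, stood at 29.3, 31.8 and 30.2 CPM in saline and at 69.2, 65.4 and 60.5 CPM in cisplatin mice. In combination mice it stood at 34.5, 35.1 and 33.6 CPM. Its cisplatin mice exceeded all others, and the interaction was -0.81 ± 0.08 (adjusted p 7.5e-05). Rrp12 and Gar1, a factor of small-subunit export and a pseudouridylation factor, rose by 1.22 and 1.19 after cisplatin and had interactions of -0.90 and -0.80 (adjusted p 0.00051 and 0.0030). Utp20 and Imp3, parts of the processome that matures the small subunit, were the 2 that fell, by 0.45 and 0.35, and neither was called under library totals.

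Assembly and export factors of the large subunit also rose after cisplatin and were lower in the combination. After cisplatin 27 of 32 rose and 1 fell (84.4 and 3.12%, beside 29.7 and 30.4% of all genes, median 0.49). Between combination and cisplatin 0 were higher and 24 lower (75.0% lower, beside 13.5% of all genes, median -0.33), and the interaction was called lower for 21 (65.6%, beside 7.15% of all genes). Gnl3, or nucleostemin, stood at 21.4, 22.3 and 21.2 CPM in saline, at 54.0, 48.8 and 44.1 CPM in cisplatin and at 24.2, 25.0 and 26.7 CPM in combination mice. It rose by 1.18 ± 0.07 after cisplatin (adjusted p 1.6e-08), and its interaction was -0.98 ± 0.10 (adjusted p 8.8e-05). Brix1 and Grwd1 rose by 1.04 and 0.94 with interactions of -0.41 and -0.61 (adjusted p 0.00095 and 0.017), and Efl1, which helps release Eif6 from the new subunit, fell by 0.27. Of 17 genes of RNA polymerase I and its factors, 10 rose and 2 fell after cisplatin (15 and 0 under library totals, median 0.34 under TMM), and 10 were lower in the combination than after cisplatin. That is 58.8% higher and 11.8% lower after cisplatin and 58.8% lower in the combination, beside 29.7, 30.4 and 13.5% of all genes. Rrn3, which recruits the polymerase to ribosomal DNA, rose by 0.92 ± 0.06 (adjusted p 2.1e-08) with an interaction of -0.55 (adjusted p 0.00075). The falls of Efl1 and of Polr2k (-0.22), a subunit shared by the polymerases, turned to values above 0 under library totals.

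**Figure D5:**
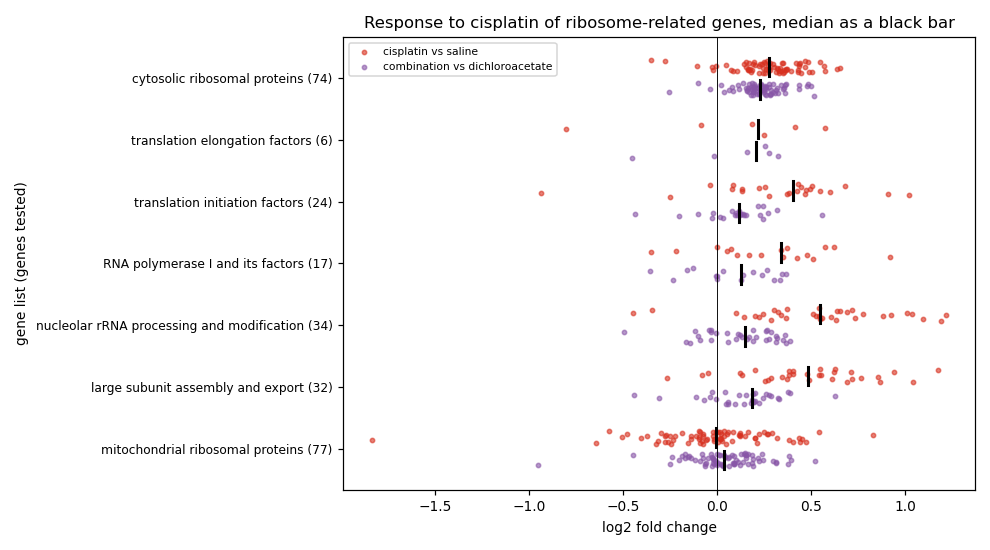
Log2 fold change of each gene (points, spread vertically for visibility) in the ribosomal protein genes and 6 related lists, for cisplatin against saline (red) and combination against dichloroacetate (purple), with the list's median as a black bar. The medians of the cytosolic ribosomal proteins lie close together at 0.28 and 0.23, while those of the nucleolar processing genes lie at 0.55 and 0.15 and those of the large-subunit assembly genes at 0.49 and 0.18.

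Most translation factors rose after cisplatin. Some initiation factors, among them Eif3h and Eif4b, were counted with the other TOP mRNAs below and not here. Of 24 other initiation factors 18 rose and 2 fell after cisplatin (75.0 and 8.33%, beside 29.7 and 30.4% of all genes, median 0.40). In the combination 11 were lower and 1 higher than after cisplatin (45.8 and 4.17%, beside 13.5 and 18.1% of all genes), and under library totals 19 were lower and 1 higher. Eif4a1, the cap-complex helicase, stood at 230, 241 and 246 CPM in saline, at 461, 465 and 423 CPM in cisplatin and at 301, 307 and 312 CPM in combination mice. Its interaction was -0.64 ± 0.07 (adjusted p 9.8e-05), whereas its paralog Eif4a2 fell by 0.25 after cisplatin and did not under library totals (0.03). Eif6, the anti-association factor of the large subunit, rose by 1.02 and Eif2s1 by 0.68, and Eif4g3 fell by 0.94. The elongation list held 6 tested genes, which were elongation factors and the kinase Eef2k. Of these 4 rose and 1, Eef2k, fell (66.7 and 16.7%, beside 29.7 and 30.4% of all genes, median 0.22). Between combination and cisplatin 1 was called, higher (0 higher and 2 lower under library totals). That is 16.7%, near the 18.1% of all genes. Eef1a1, itself a TOP mRNA and abundant at 3098.5, 3314.8 and 3303.9 CPM in saline mice, rose by 0.25 ± 0.05 (adjusted p 0.00071), and Eef1g and Eef1b2 rose by 0.57 and 0.41. The kinase Eef2k, which slows elongation, fell by 0.80.

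Of 15 other mRNAs known to carry a TOP motif, 7 rose and 2 fell after cisplatin (13 and 0 under library totals), or 46.7 and 13.3%, beside 29.7 and 30.4% of all genes, with a median of 0.14. In the combination 3 were higher and 4 lower than after cisplatin (0 and 7 under library totals), or 20.0 and 26.7%, beside 18.1 and 13.5% of all genes. Gas5, a host transcript of snoRNAs, rose by 0.84 (adjusted p 9.7e-08), Nap1l1, a histone chaperone, by 0.77 and Npm1, a nucleolar chaperone, by 0.69. Gas5, Nap1l1 and Npm1 had interactions of -0.31, -0.50 and -0.31 (adjusted p 0.028, 0.0051 and 0.015). Eif3h and Eif4b fell by 0.29 and 0.26, and under library totals Eif3h was at -0.02 and Eif4b at 0.02.

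Of 24 mTOR and TOP regulators 9 rose and 7 fell after cisplatin (16 and 4 under library totals). These 37.5 and 29.2% lie near the 29.7 and 30.4% of all genes. In the combination 6 were higher and 5 lower than after cisplatin (3 and 11 under library totals), or 25.0 and 20.8%, beside 18.1 and 13.5% of all genes. Myc, the transcription factor that drives ribosome production, stood at 3.23, 4.43 and 3.94 CPM in saline, at 34.0, 28.9 and 27.5 CPM in cisplatin and at 9.98, 7.99 and 11.9 CPM in combination mice. It rose by 2.96 ± 0.16 (adjusted p 5.5e-09), and its interaction was -1.30 (adjusted p 0.0023). Mtor fell by 0.90 and its partner Rptor by 1.61, with interactions of 0.43 and 0.76 (adjusted p 0.022 and 0.00021). The mTOR inhibitors Ddit4 and Sesn2 rose by 1.69 and 1.53, while Deptor fell by 0.90.

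Of 14 genes for ribosomal protein import, ribosome quality control and the link to p53, 9 rose and 2 fell after cisplatin (12 and 0 under library totals), and 9 were lower and 0 higher in the combination than after cisplatin. That is 64.3% higher and 14.3% lower after cisplatin, and 64.3% lower in the combination, beside 29.7, 30.4 and 13.5% of all genes. Mdm2, the ligase that free Rpl5 and Rpl11 inhibit and itself a p53 target, stood at 43.2, 43.6 and 41.5 CPM in saline, at 234, 202 and 186 CPM in cisplatin and at 135, 129 and 138 CPM in combination mice. It rose by 2.28 ± 0.08 (adjusted p 6.6e-11) and had an interaction of -0.74 (adjusted p 0.00042). Trp53 and Zfp593 rose by 0.99 and 0.80, and Mdm4 and Ltn1, which were 0.06 and 0.11 under library totals, fell by 0.22 and 0.17.

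Mitochondrial ribosomal proteins serve the separate ribosome of the mitochondrion. Of 77 genes 19 rose and 20 fell after cisplatin (median -0.01), or 24.7 and 26.0%, near the 29.7 and 30.4% of all genes. In the combination 24 were higher and 2 lower than after cisplatin (12 and 10 under library totals), or 31.2 and 2.60%, beside 18.1 and 13.5% of all genes. Under library totals 53 rose and 6 fell after cisplatin, with the median at 0.27, close to that of all genes. Mrps28 fell by 1.84 ± 0.13 (adjusted p 3.6e-08) from 17.9, 21.3 and 23.9 CPM to 4.80, 5.85 and 6.92 CPM, and Mrps18b rose by 0.83 ± 0.08 (adjusted p 1.0e-06).

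Markers of some cell types moved with treatment alongside the ribosomal protein genes. Marker sums here use library totals, whereas the calls use TMM scaling. TMM factors were 0.91 to 0.96 in saline and 1.11 to 1.15 in cisplatin libraries, so library totals raise cisplatin sums relative to saline sums. All 11 proximal tubule markers were lower after cisplatin, or 100%, beside 30.4% of all genes. They summed to 11895 to 14646 CPM after cisplatin against 31479 to 33854 CPM in saline mice. In combination mice that sum was 16438 to 19029 CPM. Neutrophil markers summed to 17.0 to 23.8 CPM in saline, 30.03 to 36.0 CPM in cisplatin and 20.1 to 24.1 CPM in combination mice. After cisplatin 2 of 5 tested neutrophil markers were higher, or 40.0%, beside 29.7% of all genes. Macrophage markers had 3 of 12 genes higher and 3 lower after cisplatin, 25.0% in each direction and near the 29.7 and 30.4% of all genes. On library totals their sum was 108 to 136.5 CPM in saline and 135 to 165 CPM in cisplatin mice, which overlapped. Of 6 tested lymphocyte markers 2 were lower after cisplatin, or 33.3%, near the 30.4% of all genes. Of 11 fibroblast and endothelial markers 6 were lower, or 54.5%, beside the same 30.4%. Under library totals 5 neutrophil markers were higher, 4 macrophage markers were higher and 2 lower, 0 lymphocyte markers and 1 fibroblast or endothelial marker were lower. All 6 tested erythroid genes were lower after cisplatin, or 100%, beside 30.4% of all genes. The part of these cell types in the change of the ribosomal protein genes was not tested.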

How the data were processed

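Kidney RNA of 12 mice was sequenced from TruSeq libraries, per the labels' protocols. Groups of 3 mice came from the sample titles, and each library was taken as 1 mouse. The submitters' processing notes name Trimmomatic, TopHat, Cufflinks, HTSeq, bedtools, DESeq and the build mm10, with no versions or roles, and no source used here gives the strand setting of the counting, so reads of overlapping and antisense genes cannot be separated. The authors deposited raw read counts per Ensembl gene and a second table of normalised values, a scaled signal. In that signal 100% of values gave back whole reads within 0.01, the same reads as the raw counts, so a count test on them is the test reported, and it was used only for this check.

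Counts were analysed with edgeR 4.0.16 (R 4.3.3): TMM scaling, filterByExpr, and 1 quasi-likelihood fit of all 12 libraries with a mean per group, Benjamini-Hochberg adjustment over 20370 genes and a call at an adjusted p below 0.05. CPM values use TMM-scaled library sizes, except the summed marker levels, which use library totals. Levels per kilobase divide by the merged exon length in GENCODE M21, which matched 27955 of 28991 identifiers. The common biological coefficient of variation was 0.0917 with 8 residual degrees of freedom. Replicates differed by more than sampling noise (chi-square per degree of freedom 4.40 to 26.3). The fit was tested on simulated cisplatin against saline data over 20370 genes: 5, 39, 46 and 50 of 50 genes changed by 0.3, 0.6, 1 and 2 on the log2 scale were recovered, with 11 false calls.

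No source used here says how reads that match both a member and a pseudogene were assigned. Of all reads on members and their 196 named pseudogene rows, 24.4% lay on the pseudogenes, and 37 members had over 10% there. Motifs were searched in RefSeq's promoter table for GRCm38.p6, which held no entry for 20 members. Alternatives were relative log expression scaling, library totals, TMM without the members, no low-count filter, DESeq2 1.42.0, the groups of a comparison alone, a replicate block, added pseudogene counts and leaving out each mouse.

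Named with values were the 6 largest rises and all falls after cisplatin, up to 3 called changes in each direction in other comparisons, fixed members of known role, the 3 highest and 3 lowest members per kilobase, all genes of 2 short lists, and up to 3 called changes in each direction of each other list. Members, lists and markers were chosen with earlier results of these data known. A few genes of these lists enter the counts but are not reported here by name.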

Additional observations from a re-analysis of the deposited data

Results flagged for a closer look

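The response to cisplatin differed between mice with and without dichloroacetate (interaction called by edgeR at an adjusted p below 0.05, n = 3 mice in each of 4 groups) for 1 ribosomal protein gene and 25 named genes of the related lists. The interaction was called for 18.6% of all genes tested and for 1.35% of the members. Most of the list genes were named for a large called change after cisplatin, which the interaction subtracts. That choice by itself favours interactions opposite in sign to the change. A negative value means a smaller rise, a larger fall, or a fall in place of a rise, under dichloroacetate. Among ribosomal proteins and their paralogs the named genes called were Rpl12 at -0.31 and Rpl7l1 at -0.29 on the log2 scale. Rpl7l1 stood at 77.3, 70.8 and 79.6 CPM under dichloroacetate and at 71.3, 66.7 and 70.4 CPM in the combination. Without dichloroacetate it stood at 63.8, 70.0 and 74.2 CPM in saline and at 79.9, 77.6 and 74.9 CPM after cisplatin.

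Nucleolar and polymerase I genes gave Rrp12 -0.90, Nop56 -0.81, Gar1 -0.80, Rrn3 -0.55, Polr1e -0.45 and Imp3 0.26. Imp3 fell after cisplatin alone (35.5, 39.0 and 37.9 CPM in saline, 28.3, 29.4 and 30.5 CPM after cisplatin). Its interaction passed the test narrowly (adjusted p 0.049 in edgeR). That call was lost under relative log expression scaling, under library totals and in DESeq2. Large-subunit assembly genes gave Gnl3 -0.98, Grwd1 -0.61 and Brix1 -0.41. Translation factors gave Eif4a1 -0.64, Eif6 -0.47, Eif2s1 -0.46 and Eif4g3 0.50, and TOP mRNAs gave Nap1l1 -0.50, Gas5 -0.31 and Npm1 -0.31.

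Regulators gave Myc -1.30, Ddit4 -1.18, Mdm2 -0.74, Trp53 -0.59, Mtor 0.43, Rptor 0.76 and Deptor 0.94. The 3 genes with values above 0 in this group all fell after cisplatin alone, a pattern that the choice of genes favours. Deptor, an inhibitor of mTOR, stood at 83.2, 80.8 and 73.6 CPM in saline, at 40.5, 40.2 and 46.5 CPM after cisplatin and at 76.8, 80.1 and 76.5 CPM in the combination. Mrps28, a mitochondrial ribosomal protein, gave 0.88 and stood at 11.6, 11.9 and 10.7 CPM in the combination, between its cisplatin and saline levels.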

How the results depend on the processing

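Of 2979 values computed for named genes under the alternatives, 2818 kept their side of the threshold. A further 119 lost the call, 30 gained it and 12 changed sign with a call in either setting. These 12 came with library totals in cisplatin against saline, which moved the median of all genes from -0.01 to 0.26: Rpl10 0.0013, Rpl22 0.27, Rps27 0.25, Efl1 0.0075, Eif4a2 0.026, Eif4b 0.016, Fau 0.26, Ltn1 0.11, Mdm4 0.056, Polr2k 0.059, Rpl36al 0.23 and Rps27rt 0.20. Another 24 changes of sign, 7 of them under library totals, had no call in either setting and are counted among the 2818. Of 286 counts and summaries 252 were similar. Library totals gave 0 members lower after cisplatin, 0 higher and 35 lower between combination and cisplatin, 0 lower in the combination against dichloroacetate and 0 against saline, 4 lower in the interaction, and a median after cisplatin of 0.56. The 2 members higher in the combination than after cisplatin became 0 with relative log expression scaling, 0 with DESeq2 and 1 without a low-count filter, and the cause was not tested.

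Leaving out 1 mouse moved the median after cisplatin between 0.21 and 0.35 (without saline replicates 1 and 3). It moved the members higher between combination and cisplatin between 0 and 2 and those lower between 1 and 3. Members higher in the combination against dichloroacetate ranged from 29 to 61, and members lower in the combination against saline from 0 to 2. In the interaction 0 to 1 were higher and 0 to 3 lower. The rise of 61 members after cisplatin ranged from 46 to 66 in number.

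Same-numbered mice did not deviate together: correlations were -0.0953 to 0.15 over 18 pairs, 4 of them over 0.1, so the numbers were not taken as pairs. With a replicate block 61 members rose and 2 fell after cisplatin, 0 were called for dichloroacetate, 60 and 1 in the combination against dichloroacetate, and 2 and 3 against cisplatin. Depth did not limit the members, which had at least 2961 counts per library.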

Other observations

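The 196 rows of the count table named as pseudogenes of the members held 0.454, 0.492 and 0.508% of all counts in the saline mice, 0.475, 0.511 and 0.489% under dichloroacetate, 0.714, 0.723 and 0.658% after cisplatin and 0.640, 0.664 and 0.635% in the combination. With these reads included, the ribosomal protein share of the counts was 1.86 to 2.10% in saline and 2.77 to 3.03% in cisplatin mice, still without overlap. Of the 21 members with no such row, 17 were higher and 0 lower after cisplatin, with a median log2 fold change of 0.30, beside a median of 0.26 for the 53 members with at least 1 such row. This difference was not tested. The share of a member's reads that lay on its named pseudogenes was highest for Rpl35a at 80.9% and Rps2 at 70.5%, so the levels of these genes are uncertain.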
